A study of Mus musculus with 98 samples.

Results

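Blood leukocyte RNA was compared between 2 mouse models, trauma-hemorrhage (TH) and infusion of lipopolysaccharide (LPS), for how far arrays coded x stood from arrays coded c in each. All 44 blood arrays of these models were used, of 98 arrays in the series, which also holds a burn model and spleen. Each array title carries a code (c or x) and a letter. Per the labels, letter E marks the animals given TH or LPS and letter A the sham. The labels leave c and x unexplained, so both are compared as coded. By these labels, arrays labelled sham and arrays labelled injured stand on both sides, so x minus c cannot be read from the labels as injury against sham. In TH there were 5 arrays of letter A and 6 of letter E coded c, and the same numbers coded x (11 against 11). In LPS there were 6 of each letter coded c and 5 of each letter coded x (12 against 10). Strain, age, dose and time were not given in the sources used here, and no label states that arrays of a group are different animals, so a p-value here speaks of variation among arrays that could be technical.

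For each gene, x minus c was taken within TH and within LPS on the log2 scale, each averaged over the letters, and the LPS value was subtracted from the TH value. This model difference is positive where x minus c was more positive in TH and negative where it was more positive in LPS. It never sets a level of one model against a level of the other, because the deposited values of the models differ in scale. Errors are standard errors (SE), and adjusted p-values are from limma with Benjamini-Hochberg adjustment over 10247 genes and unnamed probe sets. A gene passed at an adjusted p under 0.05.

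As background, lipopolysaccharide is a wall component of Gram-negative bacteria. The binding protein Lbp and the surface protein Cd14 hand it to the receptor Tlr4 with its partner Ly96. The receptor then signals through the adaptor Myd88 to NF-kB, which drives cytokine genes, and through a second adaptor to the kinase Tbk1 and interferon beta. Trauma-hemorrhage combines tissue injury with blood loss and exposes leukocytes to damaged tissue, low oxygen delivery and stress hormones. Interferons of type I and interferon gamma act through Jak kinases and Stat proteins on target genes, many of which carry the interferon-stimulated response element (ISRE), a repeat of GAAA, before their start.

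The sequences of that element stand first, because interferon targets are among the genes with the largest model differences. The promoters shown are upstream stretches from RefSeq on GRCm38.p6, printed on the strand of the gene, with the match to the ISRE core GAAANNGAAA (or its reverse complement) in capitals. Gbp2 lies on the plus strand at chr3:142620554-142620662, Ifit1 on the plus strand at chr19:34640735-34640863, Gbp3 on the plus strand at chr3:142559949-142560043, Ifit3 on the plus strand at chr19:34583323-34583466 and Oas1a on the minus strand at chr5:120907526-120907595. Apart from Gbp2, these genes were chosen after their values were seen. All were taken from interferon targets that passed with TH more positive, and only where the upstream stretch held a match. Targets without a match were passed over, so the presence of a match in each gene shown is no result. Ifit1 and Ifit3 hold 2 separate matches each, and in Gbp3 and Oas1a 2 matches overlap.
Gbp2: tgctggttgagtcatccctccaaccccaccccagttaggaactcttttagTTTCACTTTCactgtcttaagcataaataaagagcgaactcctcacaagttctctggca
Ifit1: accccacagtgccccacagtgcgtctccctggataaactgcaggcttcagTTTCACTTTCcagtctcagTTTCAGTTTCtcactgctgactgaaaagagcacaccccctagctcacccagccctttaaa
Gbp3: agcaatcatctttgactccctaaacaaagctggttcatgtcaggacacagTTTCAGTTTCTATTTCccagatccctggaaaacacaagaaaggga
Ifit3: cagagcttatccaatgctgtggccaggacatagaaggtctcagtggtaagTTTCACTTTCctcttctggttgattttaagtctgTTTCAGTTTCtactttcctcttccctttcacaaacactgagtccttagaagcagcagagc
Oas1a: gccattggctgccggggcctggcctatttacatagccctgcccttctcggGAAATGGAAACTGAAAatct
The gene with the most negative model difference, Pglyrp1, is shown for comparison from the plus strand at chr7:18884547-18884656, with its match to the NF-kB core GGGANNNNCC, read on either strand, in capitals. That core does not set Pglyrp1 apart, as it was in 30.2% of all promoters searched and also in that of Gbp2.
Pglyrp1: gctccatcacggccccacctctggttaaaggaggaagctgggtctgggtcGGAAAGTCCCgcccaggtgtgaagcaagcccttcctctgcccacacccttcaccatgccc

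Promoters of 300 bases, 250 before the start and 50 after, were found for 7236 of the 10247 genes tested, and each motif was searched on both strands. A stretch of letters could count under more than 1 motif. The ISRE core was in 4.01% of all these promoters (290 of 7236). It was in 6.11% (87 of 1423) of the genes that passed with TH more positive and in 3.35% (69 of 2061) of those with LPS more positive. Among genes that also differed at least 2-fold the shares were 10.1% (22 of 217) and 2.9% (2 of 69). The lists of interferon targets used here held it in 18 of 35 promoters (51.4%). The NF-kB core, a short and permissive pattern, was in 30.2% of all promoters, 30.6% of those with TH more positive and 30.4% of those with LPS more positive. For the STAT element TTCNNNGAA the shares were 8.18%, 9.0% and 7.23%, and for the glucocorticoid element ACANNNTGT 5.57%, 4.99% and 5.68%. These shares are descriptions of letters in a window and were not tested.

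The model difference passed for 4881 genes, 47.6% of those tested. It was more positive in TH for 2013 (19.6%) and in LPS for 2868 (28.0%), and 411 of the 4881 differed at least 2-fold, 309 with TH more positive and 102 with LPS more positive. Taken alone, x minus c passed for 5724 genes in TH (55.9%), higher in x for 2205 (21.5%) and lower for 3519 (34.3%), and for 2520 in LPS (24.6%), higher for 1252 (12.2%) and lower for 1268 (12.4%). Of the genes that passed in TH 25.6% also passed in LPS, and of those that passed in LPS 58.2% also passed in TH, 1466 in all. Among these, 947 went in opposite directions and also passed in the model difference (9.24% of genes tested), 524 of them higher in x in TH and lower in LPS and 423 the reverse. The other 519 went in the same direction in both (5.06%). The counts of gene list members given below are to be read against these shares of all genes tested. Across all genes tested, which are not independent replicates and were normalized together, x minus c in TH and in LPS correlated with an r of 0.0127.

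**Figure D1:**
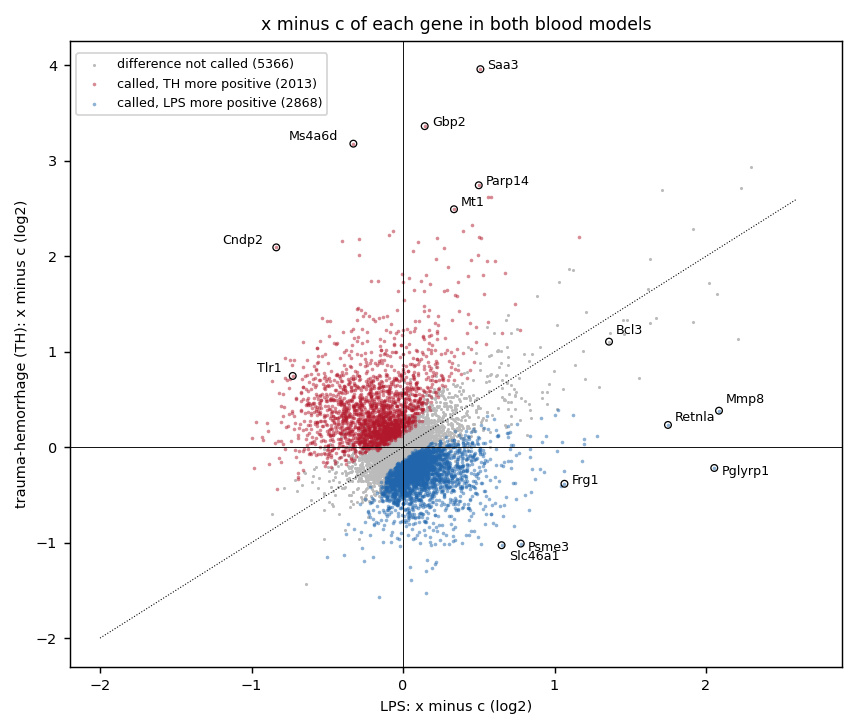
Each point is a gene, with x minus c in LPS on the horizontal axis and x minus c in TH on the vertical axis, both in log2, coloured by whether the model difference passed; the dotted line marks equal values. Saa3, Gbp2, Ms4a6d and Cndp2 lie at the top, with TH values from 2.09 to 3.96, while Pglyrp1, Mmp8 and Retnla lie to the right, with LPS values from 1.75 to 2.09.

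The split between the directions depended on the scaling. The TH-more-positive share of the calls was 41.2% here, 54.6% (2431 of 4450) with each array scaled to a common median and 57.8% (2490 of 4307) with the values as deposited. The median model difference over all genes was -0.06 and the median SE 0.095. The arrays fall into 2 runs of title numbers in each model, and within them 3198 and 2738 genes passed. Both letters gave the same sign for 4876 of the 4881 genes. Those genes were called on the average of the letters, so a shared sign was largely fixed by that choice. As terms of the same fit, 3400 genes passed in letter A and 2442 in letter E, with 1938 passing in both in the same direction. A dependence of the model difference on the letter passed for no gene in limma (310 at an unadjusted p under 0.05, and 9 with limma's array weights), which does not show that the letters agree. The ratio of 3' to 5' beta-actin control signal, a measure of RNA integrity and labelling, also differed between the codes. In log2 it ran from 0.970 to 1.65 in TH x against 1.79 to 2.28 in TH c, and from 0.938 to 1.27 in LPS x against 1.49 to 1.65 in LPS c, without overlap in either model. The x minus c of this ratio was -0.58 in TH and -0.51 in LPS. With the ratio as a covariate the model difference passed for 4663 genes, x minus c in TH for 265 and the opposite directions for 30. Because the ratio did not overlap between the codes, the code and the ratio cannot be told apart within a model.

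The gene with the most positive model difference was Ms4a6d, a membrane protein of monocytes and macrophages. Its log2 level ran from 5.84 to 7.93 with a median of 6.85 in TH c and from 8.90 to 10.79 with a median of 9.91 in TH x. The LPS arrays ran from 6.87 to 8.86 with a median of 7.50 in c and from 6.69 to 8.09 with a median of 7.29 in x. The TH groups did not overlap, as for 1.73% of all genes tested in that direction, and the LPS groups did. Its model difference was 3.51 ± 0.35 (adjusted p = 2.76e-10), from 3.18 ± 0.25 in TH and -0.33 ± 0.25 in LPS (adjusted p = 0.363). Of its 3 probe sets, the one with the highest mean was used. In bulk blood RNA, fewer cells of a type and less RNA per cell cannot be told apart.

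Saa3, an acute phase protein made by activated macrophages, ran from 6.79 to 9.47 with a median of 7.85 in TH c and from 11.18 to 12.55 with a median of 11.91 in TH x, so that every TH x array lay above every TH c array. In LPS the groups overlapped, with c from 7.50 to 9.67 with a median of 8.13 and x from 7.81 to 10.44 with a median of 8.92. Its x minus c of 3.96 ± 0.27 in TH against 0.51 ± 0.27 in LPS gave a model difference of 3.45 ± 0.39 (adjusted p = 3.27e-09). Gbp2, a guanylate-binding GTPase induced by interferon, stood apart in the same way. In TH its c arrays ran from 7.02 to 8.66 with a median of 7.53 and its x arrays from 9.46 to 12.42 with a median of 10.87, while in LPS c ran from 8.11 to 9.55 with a median of 8.67 and x from 7.50 to 10.19 with a median of 8.68. The model difference was 3.22 ± 0.34 (adjusted p = 8.92e-10), and its other probe set gave 2.76. Its promoter is the one shown with a single ISRE match.

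Sensors and effectors of the antiviral response were also among the 10 most positive. Ifih1, a cytosolic sensor of double-stranded RNA, ran from 7.47 to 7.97 with a median of 7.57 in TH c and from 8.37 to 11.57 with a median of 9.84 in TH x. The LPS groups overlapped, at levels from 7.76 to 8.50 with a median of 8.08 in c and from 7.70 to 8.31 with a median of 8.0 in x. Its model difference was 2.31 ± 0.29 (adjusted p = 4.14e-08). Parp14, an ADP-ribosyltransferase induced by interferon, rose in x in both models, by 2.74 ± 0.17 in TH and by 0.50 ± 0.17 in LPS (adjusted p = 0.0221), with a model difference of 2.24 ± 0.23. Ifi209, of the p200 family of interferon-inducible nucleic acid sensors, differed by 2.30 ± 0.22, and Plac8, a small protein of myeloid and lymphoid cells, by 2.56 ± 0.23. The metallothionein Mt1, a metal-binding protein induced by glucocorticoids and zinc, differed by 2.16 ± 0.24, although its other probe set differed by only 0.01. For the transglutaminase Tgm2, whose difference was 2.34 ± 0.36, the 6 probe sets ranged from -0.38 to 2.34. In TH, x and c did not overlap for any of the 10 most positive genes except Tgm2, against 1.73% of all genes with x higher. These 10 were picked for their large model differences in the same arrays, so this separation is no separate support.

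**Figure D2:**
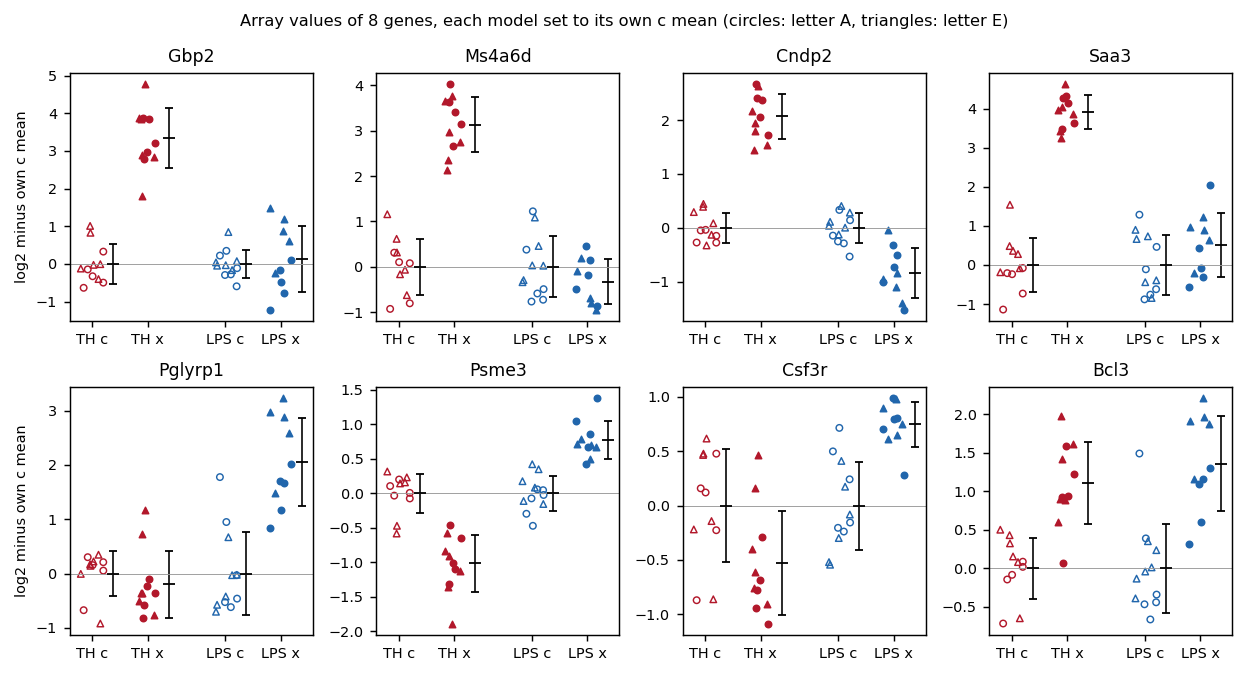
Each panel plots the log2 value of every array for 1 gene minus the mean of the c arrays of its own model, with bars for the mean and SD of each group, circles for letter A and triangles for letter E. In TH, x lies above c without overlap for Gbp2, Ms4a6d, Cndp2 and Saa3, whereas Psme3 lies above c in LPS and has a negative x minus c in TH (-1.01).

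Pglyrp1, a peptidoglycan recognition protein stored in neutrophil granules, had the most negative model difference. It ran from 9.48 to 10.75 with a median of 10.56 in TH c and from 9.58 to 11.58 with a median of 10.05 in TH x, which overlapped (x minus c -0.22 ± 0.25, adjusted p = 0.473). In LPS it rose, from arrays from 7.81 to 10.28 with a median of 8.28 in c to arrays from 9.35 to 11.73 with a median of 10.37 in x, by 2.05 ± 0.25. The model difference was -2.27 ± 0.35 (adjusted p = 1.92e-06). The collagenase Mmp8, another neutrophil granule protein, rose by 2.09 ± 0.38 in LPS and had an x minus c of 0.38 ± 0.38 in TH (adjusted p = 0.404), a model difference of -1.70 ± 0.54. Retnla, a secreted resistin-like protein, rose by 1.75 ± 0.28 in LPS, against 0.23 ± 0.28 in TH (adjusted p = 0.497), a model difference of -1.52 ± 0.40.

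The other genes of that end passed in both models, lower in x in TH and higher in LPS. Psme3, the proteasome activator subunit of the nucleus, ran from 10.30 to 11.20 with a median of 10.99 in TH c and from 8.99 to 10.43 with a median of 9.88 in TH x, but from 9.31 to 10.20 with a median of 9.79 in LPS c and from 10.21 to 11.16 with a median of 10.48 in LPS x. In LPS no c array reached the x arrays, as for 0.751% of all genes tested. Its model difference was -1.79 ± 0.18 (adjusted p = 3.85e-10), with its 3 probe sets ranging from -1.79 to -0.36. Slc46a1, the proton-coupled folate transporter, fell without overlap in TH (-1.03 ± 0.12), as 2.25% of all genes did, and rose in LPS (0.65 ± 0.12), although its other probe set had a model difference of 0.05. Frg1 (model difference -1.45 ± 0.14), Gpsm3 (-1.45 ± 0.19), the ubiquitin-conjugating enzyme Ube2o (-1.56 ± 0.21), Cdr2 (-1.53 ± 0.20) and the fatty acid elongation enzyme Hacd2 (-1.49 ± 0.23) followed. Frg1 and Gpsm3 were separated from c in LPS, whereas Ube2o, Cdr2 and Hacd2 overlapped in both models.

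Among the 947 genes that passed in opposite directions, the dipeptidase Cndp2 had the largest model difference. It ran from 6.88 to 7.65 with a median of 7.16 in TH c and from 8.65 to 9.87 with a median of 9.26 in TH x, a rise of 2.09 ± 0.15. In LPS it ran from 8.26 to 9.19 with a median of 8.81 in c and from 7.27 to 8.74 with a median of 7.89 in x, with x lower (-0.84 ± 0.15, adjusted p = 2.82e-05). The model difference was 2.93 ± 0.21, and 1.02 for its other probe set. Mndal, of the p200 family, rose by 1.36 ± 0.16 in TH and fell in LPS (-0.54 ± 0.16). Ms4a6b, a membrane protein of lymphoid and myeloid cells related to Ms4a6d, rose by 1.33 ± 0.16 in TH and fell in LPS (-0.48 ± 0.16, adjusted p = 0.024), and AW112010 did the same, with 1.32 ± 0.18 and -0.50 ± 0.18. In LPS, x and c overlapped for all 4 of these genes.

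A smaller set rose in both models. Of the genes at least 2-fold changed in the same direction in both there were 24, 21 of them with 1 symbol, and those 21 were higher in x. For 6 of these the interval of the model difference stayed closest to 0, which bounds the difference without showing equality. Bcl3, a nuclear regulator of NF-kB, rose by 1.11 ± 0.20 in TH and 1.36 ± 0.20 in LPS, with a 95% interval of the model difference of -0.83 to 0.32. Tlr2, the receptor for bacterial lipoproteins, rose by 1.28 ± 0.23 and 1.01 ± 0.23 (interval -0.40 to 0.92). The haptoglobin gene Hp (1.01 ± 0.27 and 1.19 ± 0.27), the formyl peptide receptor Fpr2 (1.2 ± 0.31 and 1.37 ± 0.31), Samsn1 (1.41 ± 0.24 and 1.21 ± 0.24) and the immediate early gene Ier3 (1.33 ± 0.30 and 1.48 ± 0.30) completed the set. Their model differences ran from -0.25 to 0.26, and the interval of Fpr2 ran as wide as -1.05 to 0.71.

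The interferon chain, from ligands to transcription factors, did not move as a block: 17 of 23 listed members were tested, and 5 passed with TH more positive and 4 with LPS more positive, against 19.6% and 28.0% of all genes (7 and 3 with each array scaled to a common median). Of the ligands, Ifnb1 ran from 7.18 to 7.66 with a median of 7.42 in TH c and from 6.78 to 7.26 with a median of 7.02 in TH x, a fall (-0.39 ± 0.06). In LPS it ran from 6.84 to 7.30 with a median of 6.94 in c and from 6.99 to 7.29 with a median of 7.12 in x, with an x minus c of 0.15 ± 0.06 that did not pass (adjusted p = 0.0746). Its model difference was -0.54 ± 0.09, and that of Ifna1 was -0.34 ± 0.09. These 2 ligand transcripts were lower in x in TH, where 34.3% of all genes tested passed as lower. Ifna2, also tested, had medians of 7.59 in TH c and 7.51 in TH x, and of 7.41 in LPS c and 7.45 in LPS x, with overlap in both models.

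Of the receptors, Ifngr1, the ligand-binding chain of the interferon gamma receptor, rose in TH (0.82 ± 0.10) and had an x minus c of 0.00 ± 0.10 in LPS. Its TH c arrays ran from 8.04 to 9.35 with a median of 8.64 and its x arrays from 8.97 to 9.88 with a median of 9.40, which overlapped, and the model difference was 0.82 ± 0.15 (adjusted p = 1.97e-05). The second chain, Ifngr2, differed the other way (-0.59 ± 0.15), although its other probe set gave 0.06. Ifnar1, a chain of the type I receptor, differed by -0.25 ± 0.09. Among the transducers the kinases Jak2 (0.44 ± 0.09) and Tyk2 (0.19 ± 0.07), the transcription factor Stat2 (0.18 ± 0.07) and Irf7 (0.67 ± 0.21), the amplifier of type I interferon, were more positive in TH. Irf1 (0.08 ± 0.17, adjusted p = 0.709) and Irf9 (0.20 ± 0.09, adjusted p = 0.0587) did not pass. The calls of Stat2 and Tyk2 were lost in 11 and 6 of 44 fits that each left out 1 array. The call of Ifnar1 was lost with each array scaled to a common median, where Irf1 and Irf9 gained one. The count of 5 was 3 without TH x replicate 1 of letter A or without TH x replicate 2 of letter E.

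**Figure D3:**
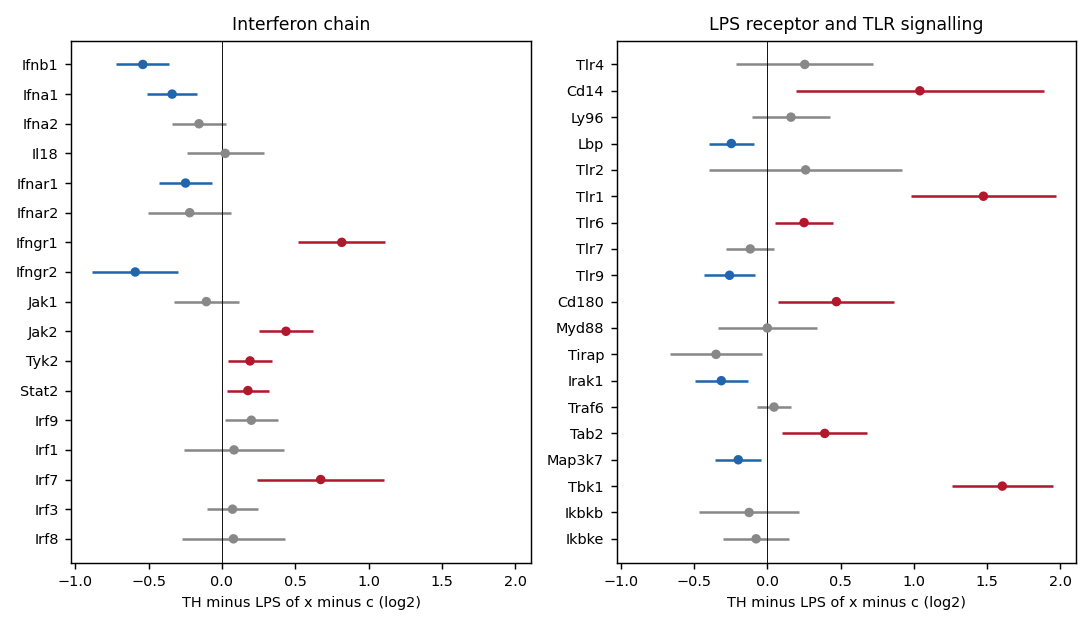
Points are model differences in log2 and lines their 95% intervals, for the tested members of the interferon chain and of the LPS receptor and toll-like receptor list, from ligands and receptors at the top to kinases and factors at the bottom; red passed with TH more positive, blue with LPS more positive, grey did not pass. Tbk1 (1.60) and Tlr1 (1.47) lie farthest to the right and Ifngr2 (-0.59) and Ifnb1 (-0.54) farthest to the left.

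The targets of interferon had larger median model differences than the chain (0.85 for type I and 0.91 for interferon gamma, against 0.07). Of 26 tested type I targets (35 listed), 20 passed with TH more positive and 3 with LPS more positive, beside a median model difference of -0.06 over all genes. In TH 19 were higher and 2 lower in x, and in LPS 4 were higher and 2 lower. Over all genes these shares were 21.5% and 34.3% in TH and 12.2% and 12.4% in LPS. The mean log2 level of the list in each array ran from 8.38 to 8.75 in TH c and from 8.84 to 10.5 in TH x, without overlap. In LPS it ran from 8.47 to 8.70 in c and from 8.50 to 8.99 in x, with overlap. Zbp1, a sensor of left-handed nucleic acid that leads to cell death, had a model difference of 1.87 ± 0.24. Further members, chosen after their values were seen, were Ifit1 (2.05 ± 0.32), whose protein binds viral RNA, Ifit3 (1.59 ± 0.37), the deubiquitinase Usp18 (1.87 ± 0.29), Oas1a (1.53 ± 0.28), which makes the activator of RNase L, and Trim30a (1.48 ± 0.22). The 3 that went the other way were Isg20 (-0.34 ± 0.09), Oas3 (-0.29 ± 0.10) and Lgals3bp (-0.30 ± 0.10). With letter E alone, 11 of the 26 passed with TH more positive, and 11 did with marker scores of neutrophils, monocytes and erythroid cells as covariates, an alternative chosen after the data were seen.

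Among 20 tested targets of interferon gamma (28 listed), 12 passed with TH more positive and 2 with LPS more positive, at a median of 0.91. In TH 16 were higher in x and in LPS 6. In TH, 10 of the 20 were higher in x without overlap of the arrays, against 1.73% of all genes. The list level ran from 7.73 to 8.01 in TH c and from 8.39 to 9.51 in TH x. In LPS it ran from 7.95 to 8.17 in c and from 8.01 to 8.69 in x. Ifi47 (1.97 ± 0.22) and Irgm1 (1.37 ± 0.18) are immunity-related GTPases of vacuoles that hold microbes, and Irgm1 also rose in LPS (0.36 ± 0.13). The chemokine Cxcl10, chosen after its values were seen, rose in both models (2.69 ± 0.35 in TH and 1.71 ± 0.35 in LPS), and its model difference of 0.98 ± 0.49 did not pass (adjusted p = 0.0947). The suppressor of cytokine signalling Socs1 (-0.33 ± 0.09) and the peptide transporter chain Tap2 (-0.36 ± 0.10) had LPS more positive. Of 6 tested members of the Schlafen and p200 families (13 listed), 4 passed with TH more positive and none with LPS more positive, at a median of 0.99 that was 1.38 in letter A and 0.42 in letter E. They included Slfn8 (1.74 ± 0.20) and Slfn4 (1.52 ± 0.40), growth regulators of T cells and macrophages.

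**Figure D4:**
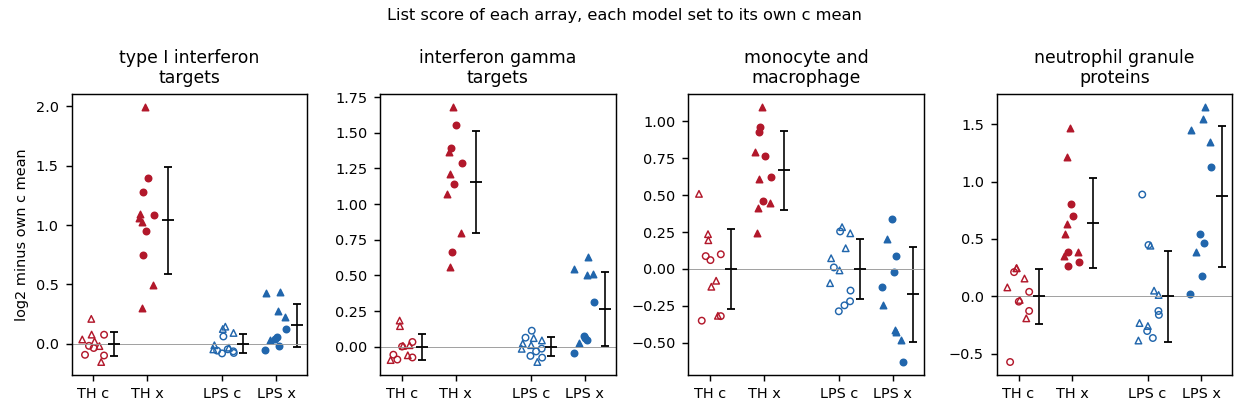
Each panel plots the mean log2 level of a gene list in every array minus the mean of the c arrays of its own model, with bars for the mean and SD of each group. The type I interferon targets of the 11 TH x arrays all lie above the TH c arrays, while the LPS x arrays overlap LPS c.

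Antigen processing and protein turnover differed in the same direction. Of 14 tested members of the MHC class I pathway (18 listed), 6 passed with TH more positive and 1 with LPS more positive (median 0.33), or 9 and 1 with each array scaled to a common median (median 0.51), and 12 rose in TH. Tap1, which carries peptides into the endoplasmic reticulum, differed by 1.36 ± 0.20, Erap1, which trims them, by 0.90 ± 0.14, and Tapbp, which loads them, by 0.84 ± 0.15. Of 30 tested subunits of the constitutive proteasome (31 listed), 22 passed with TH more positive and 3 with LPS more positive, at a median of 0.60. In TH 24 were higher and 2 lower in x, while in LPS 1 was higher and 10 lower. Of all genes, 21.5% were higher and 34.3% lower in TH, and 12.2% and 12.4% in LPS. The ring subunit Psma5 ran from 7.83 to 8.91 with a median of 8.08 in TH c and from 8.74 to 9.67 with a median of 9.08 in TH x. LPS x, from 7.86 to 8.99 with a median of 8.63, lay below LPS c, from 9.02 to 9.61 with a median of 9.39. The LPS groups were thus narrowly separated, as for 0.859% of all genes tested in that direction. It rose in TH (0.94 ± 0.12) and fell in LPS (-0.78 ± 0.12), a model difference of 1.72 ± 0.16 (adjusted p = 1.50e-10). The proteasome list level ran from 7.78 to 8.19 in TH c and from 8.24 to 8.59 in TH x, and overlapped in LPS (8.09 to 8.41 in c, 7.92 to 8.30 in x). By contrast the activator subunit Psme3, not among these members, had the reverse directions. In the MHC class II list, which also holds other genes of antigen presentation, 1 of 12 tested members passed in each direction. The median was -0.02, and 0.13 with each array scaled to a common median. Those that passed were Ctss (1.07 ± 0.20), the protease that clears the invariant chain, and, the other way, Cd80 (-0.72 ± 0.18), a costimulatory ligand. Neither encodes an MHC class II chain.

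Of 19 tested members of the LPS receptor and toll-like receptor list (28 listed), 6 passed with TH more positive and 4 with LPS more positive, at a median of 0.05 (0.12 in letter A and -0.12 in letter E). The LPS receptor Tlr4 did not pass (0.26 ± 0.23, 95% interval -0.21 to 0.72, adjusted p = 0.37), nor did the adaptor Myd88 (0.00 ± 0.17, interval -0.34 to 0.34). The co-receptor Cd14 rose in both models, from c arrays from 8.29 to 10.46 with a median of 9.58 to x arrays from 10.57 to 12.61 with a median of 11.91 in TH, and in LPS from c arrays from 7.64 to 10.52 with a median of 8.58 to x arrays from 8.0 to 11.13 with a median of 10.04. Its rise of 2.20 ± 0.30 in TH against 1.16 ± 0.30 in LPS gave a model difference of 1.04 ± 0.42 (adjusted p = 0.0384). With the first run of title numbers alone that value was -0.10, and the call was lost in 11 of 44 fits that each left out 1 array. Tlr1, the partner of Tlr2, rose in TH (0.75 ± 0.17) and fell in LPS (-0.73 ± 0.17), a difference of 1.47 ± 0.24. Tbk1, the kinase between the receptor and interferon beta, ran from 7.26 to 8.58 with a median of 7.81 in TH c and from 8.62 to 9.72 with a median of 9.34 in TH x, without overlap. In LPS it ran from 8.56 to 9.16 with a median of 8.90 in c and from 8.07 to 9.0 with a median of 8.71 in x, and the model difference was 1.60 ± 0.17 (adjusted p = 1.07e-09).

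The remaining members of that list that passed were Cd180 (0.47 ± 0.20), Tab2 (0.39 ± 0.14) and Tlr6 (0.25 ± 0.10), more positive in TH, and Lbp (-0.25 ± 0.08), the DNA receptor Tlr9 (-0.26 ± 0.09), Irak1 (-0.31 ± 0.09) and Map3k7 (-0.20 ± 0.08), more positive in LPS. Scaling each array to a common median ended the calls of Lbp, Cd180, Irak1 and Map3k7, and left 5 and 1 passing. In 20 of the 44 fits that each left out 1 array Cd180 lost its call, and in 6 each Tlr6 and Map3k7 did. The count of 6 was 3 without TH x replicate 1 of letter A. Among NF-kB subunits and feedback genes, 4 of 13 tested passed with TH more positive and 1 with LPS more positive (median 0.05, with 0.22 in letter A and -0.12 in letter E), while 10 rose in TH and 7 in LPS. The count of 4 was 2 in 10 of the 44 fits that each left out 1 array. The inhibitor Nfkbia (0.55 ± 0.17) and the feedback adaptor Tnip1 (0.86 ± 0.27) were more positive in TH, and the inhibitor Nfkbie (-0.63 ± 0.16) in LPS.

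None of 10 tested inflammatory cytokines (16 listed) passed with TH more positive and 5 passed with LPS more positive, at a median of -0.17. In TH 2 were higher and 3 lower in x. Tnf fell in TH (-0.35 ± 0.09) and had 0.02 ± 0.09 in LPS, a model difference of -0.36 ± 0.12, and Csf2 (-0.35 ± 0.08) and Vegfa (-0.36 ± 0.10) passed in the same direction. Il1b, chosen after its values were seen, had -0.23 ± 0.28 in TH and 0.85 ± 0.28 in LPS, a difference of -1.08 ± 0.39 (adjusted p = 0.0225). The call of Tnf was lost with each array scaled to a common median, where 1 and 3 of the list passed, and with the marker scores its model difference was 0.13. Of 17 chemokines tested, 4 passed with TH more positive and 6 with LPS more positive, against 19.6% and 28.0% of all genes. Under scaling to a common median 5 and 3 passed, and with the values as deposited 5 and 2. Ccl9 (1.21 ± 0.21) and the T cell attractant Ccl5 (0.78 ± 0.18) were more positive in TH and Ccl6 (-0.86 ± 0.24) in LPS. Of 23 cytokine and chemokine receptors, 6 and 2 passed in those directions, at a median of 0.11 that was 0.42 with each array scaled to a common median. Il1rap, the shared chain of the interleukin-1 receptor (1.49 ± 0.30), and Il6st, that of the interleukin-6 family (1.22 ± 0.21), were more positive in TH. Csf3r, the receptor for granulocyte colony-stimulating factor, fell in TH (-0.54 ± 0.17) and rose in LPS (0.75 ± 0.17), a difference of -1.29 ± 0.24. Socs3, the inhibitor of STAT3 signalling, rose in LPS (1.02 ± 0.27) and had -0.03 in TH, a difference of -1.05 ± 0.38 that lost its call under scaling to a common median.

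Of 17 tested granule proteins (24 listed), 9 rose in TH and 11 in LPS. The model difference passed for 1 with TH more positive and 4 of the 17 with LPS more positive, where 28.0% of all genes did, at a median of -0.11 that was 0.05 in letter A and -0.64 in letter E. The gelatinase Mmp9 rose in LPS (0.93 ± 0.15) with -0.26 in TH, a difference of -1.19 ± 0.22, and Cybb, the oxidase subunit, differed by -0.57 ± 0.13 and the protease Ctsg by -0.36 ± 0.09. Ngp, a granule protein of immature neutrophils chosen after its values were seen, rose in both models (2.71 ± 0.43 and 2.23 ± 0.43), and its difference of 0.49 ± 0.60 did not pass (adjusted p = 0.523). Of 16 tested surface and migration genes, 1 and 5 passed, at a median of -0.21 that became 0.05 with each array scaled to a common median, with 1 and 2 passing. It was 0.31 in letter A and -0.56 in letter E, and the 5 ran from 3 to 6 over the fits that left out 1 array. Ceacam1 (-0.68 ± 0.09) and the selectin ligand Selplg (-0.85 ± 0.24) were among them, and Selplg lost its call under that scaling. Of 12 acute phase and antimicrobial genes, 3 passed with TH more positive and 4 with LPS more positive, at a median of -0.65. That median was -0.08 in letter A and -0.99 in letter E, and with each array scaled to a common median it was -0.41, with 3 and 2 passing. Saa3 and Pglyrp1, at opposite ends of all genes, are both in that list.

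Monocyte and macrophage genes differed toward TH. Of 20 tested (24 listed), 12 passed with TH more positive and 2 with LPS more positive, at a median of 0.79. In TH 12 rose, as 21.5% of all genes did. In LPS 1 rose and 3 fell, as 12.2% and 12.4% of all genes did. The list level ran from 8.30 to 9.16 in TH c and from 8.90 to 9.75 in TH x, and from 8.88 to 9.45 in LPS c and from 8.54 to 9.51 in LPS x. Both pairs overlapped. Msr1, a scavenger receptor of macrophages, differed by 1.99 ± 0.20, and of the Fc receptors, which bind antibody, Fcgr1 by 1.24 ± 0.20 and the inhibitory Fcgr2b by 1.62 ± 0.17. Csf1r, the receptor that sustains monocytes, was chosen after its values were seen. It rose in TH (0.37 ± 0.15) and fell in LPS (-0.63 ± 0.15).

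Defining markers of blood cell types were also read, and those of B and T cells had median model differences of -0.02 and 0.13. Of 11 neutrophil markers 9 were tested, and their median x minus c was 0.38 in TH and 0.93 in LPS. None of the 9 passed with TH more positive and 3 passed with LPS more positive, where 28.0% of all genes did. Their mean log2 level ran from 9.46 to 10.8 in TH c and 10.5 to 12.3 in TH x, and from 8.91 to 10.6 in LPS c and 9.50 to 11.8 in LPS x. Of 8 monocyte markers 7 were tested, with medians of 0.46 in TH and -0.20 in LPS, and 5 passed with TH more positive and none with LPS more positive. They ran from 8.39 to 9.52 in TH c and 9.10 to 10.2 in TH x, and from 9.26 to 10.1 in LPS c and 9.04 to 10.1 in LPS x. For the 5 platelet markers tested the medians were -0.05 and 0.22, and for the 2 of 6 erythroid markers tested -0.39 and 0.02, at median levels from 12.1 to 12.6 in the groups. For the 4 NK cell markers tested they were 0.20 and -0.18, with a median model difference of 0.57. Of these 4, 3 passed with TH more positive and 1 with LPS more positive, against 19.6% and 28.0% of all genes. For the 5 B cell markers they were -0.29 and -0.24, and for the 5 T cell markers 0.07 and -0.01. Markers of all these types were thus among the genes that passed the filter on low values. The part of changed cell numbers in the gene lists was not tested. With scores of the neutrophil, monocyte and erythroid markers as covariates, chosen after the data were seen, 1713 genes passed in the model difference. The monocyte list then had 3 genes with TH more positive, that of interferon gamma 11 and the proteasome 13. The monocyte score is made of markers of the same cell type as the monocyte list, on the same arrays. A lower count in that list thus follows in part from the covariate itself and is no separate result.

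The lists of lymphocyte, platelet and red cell genes had median model differences between -0.26 and 0.11. Their counts stand beside 19.6% of all genes that passed with TH more positive and 28.0% with LPS more positive. Of 15 tested B cell genes 1 passed with TH more positive and 5 with LPS more positive (median -0.26), and with each array scaled to a common median 1 and 2 did (median -0.07). They included Cd79a, a chain of the B cell receptor (-0.76 ± 0.24), and Fcer2a (-0.51 ± 0.16). Of 17 T cell genes 4 and 3 passed, and 7 and 1 under that scaling, with Il7r, the interleukin-7 receptor, at 0.96 ± 0.19 and Cd3d, of the T cell receptor complex, at 0.77 ± 0.15. Of 14 cytotoxic genes 4 and 3 passed, granzyme A (Gzma) at 1.10 ± 0.19 and granzyme M (Gzmm) at -0.59 ± 0.10, at a median of -0.04 that was 0.05 under that scaling. Of the 4 NK markers above, 3 passed with TH more positive and 1 with LPS more positive. Of 14 platelet genes 1 and 7 passed (median -0.22), and 3 and 4 under that scaling (median -0.11), with Gp9, of the von Willebrand factor receptor, at -0.70 ± 0.17 and the platelet chemokine Pf4 at -0.49 ± 0.12. With letter E alone none of the 14 passed with LPS more positive. Of 14 erythroid genes none passed with TH more positive and 6 with LPS more positive (median -0.20), or 4 under that scaling (median -0.11), and 8 were lower in x in TH. Carbonic anhydrase 2 (Car2) differed by -1.11 ± 0.18.

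**Figure D5:**
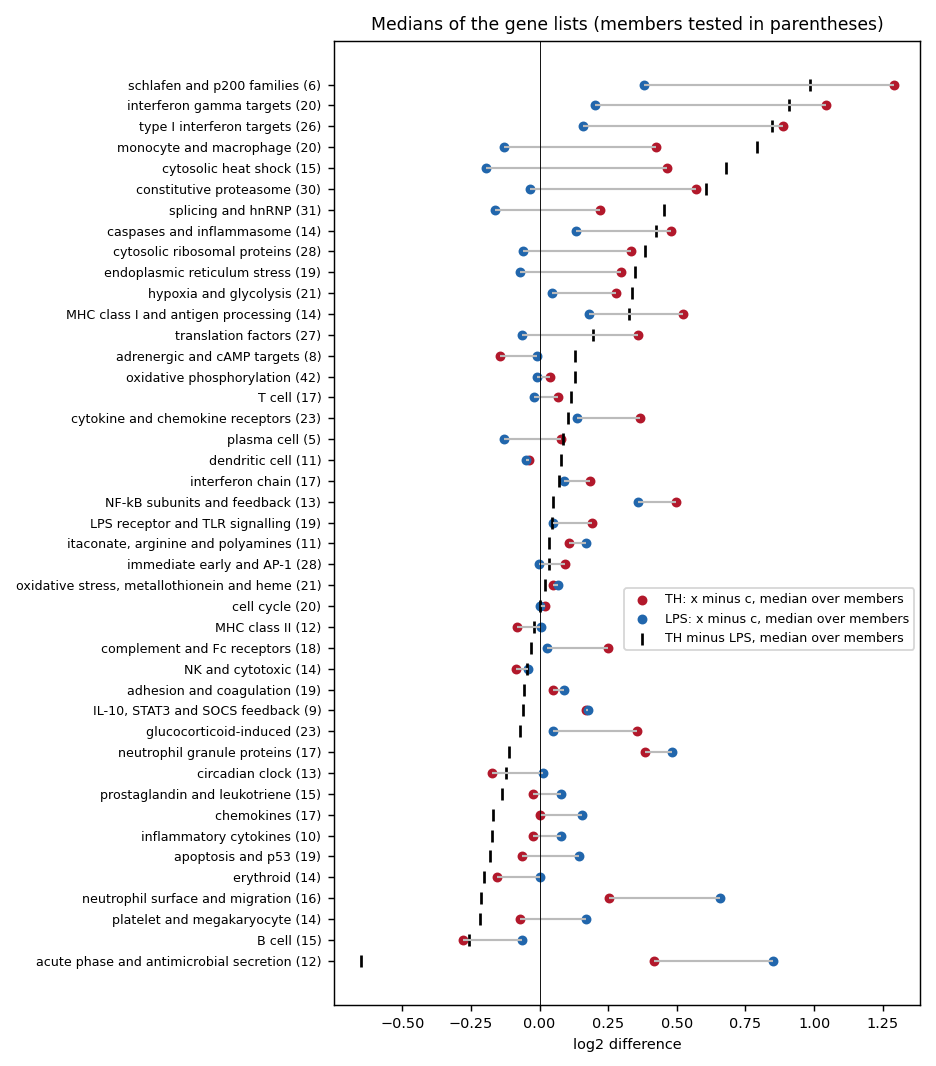
For each gene list, red points are the median x minus c in TH over its tested members, blue points that in LPS and black ticks the median model difference, all in log2, ordered by the model difference; lists with at least 5 tested members are shown. Schlafen and p200 genes (0.99), interferon targets (0.91 and 0.85) and monocyte genes (0.79) lie at the top, and acute phase genes (-0.65) at the bottom; these medians average both letters and use the main scaling.

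Genes of chaperones and protein synthesis that passed mostly had TH more positive. Of 15 tested members of the list named cytosolic heat shock, 7 passed with TH more positive and none with LPS more positive (median 0.68). In TH 10 were higher in x and in LPS 5 were lower. The list also holds Hspe1, which is mitochondrial. The co-chaperones Dnajb1 (1.22 ± 0.28) and Chordc1 (0.93 ± 0.17) and the mitochondrial Hspe1 (1.07 ± 0.20) each rose in TH and fell in LPS. In TH x 1 array, replicate 5 of letter E, reached a list level of 10.2 against a median of 8.56. With letter E alone 2 of the 15 passed, and with the marker scores none. Of 19 endoplasmic reticulum genes 10 and 6 passed (median 0.35), and 11 and 3 with each array scaled to a common median. The chaperone Hspa5 ran from 9.11 to 10.33 with a median of 9.78 in TH c and from 10.51 to 11.33 with a median of 10.84 in TH x, without overlap, a rise of 1.24 ± 0.10. In LPS its x minus c was 0.03 ± 0.10, and the model difference was 1.21 ± 0.14 (adjusted p = 1.25e-08). Canx (1.07 ± 0.17) and Hyou1 (0.88 ± 0.09) also rose in TH and fell in LPS.

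Of 28 tested cytosolic ribosomal protein genes (49 listed), 15 passed with TH more positive and 1 with LPS more positive (median 0.39), and 22 and 0 with each array scaled to a common median (median 0.71). Rpsa rose in TH (0.72 ± 0.10) and fell in LPS (-0.59 ± 0.10), a difference of 1.31 ± 0.14, and Rps19 differed by 1.04 ± 0.18. These genes have many near-identical pseudogenes, so their probe sets are uncertain. Translation factors had 12 and 3 of 27 (median 0.20), or 17 and 1 under that scaling (median 0.46), with the helicase Eif4a1 at 1.41 ± 0.13, and splicing factors 21 and 4 of 31 (median 0.45), with Srsf3 at 0.88 ± 0.10 and Hnrnpa1 at 0.82 ± 0.13. With letter E alone 7 of the splicing factors passed with TH more positive, and with the marker scores 3. Oxidative phosphorylation was split, with 16 and 13 of 42 (median 0.13) that became 20 and 7 under scaling to a common median, and Cyc1, of the bc1 complex, differed by 1.13 ± 0.11. Of 21 hypoxia and glycolysis genes 10 and 6 passed (median 0.34), and 10 and 3 under that scaling. The oxygen-regulated factor Hif1a (1.23 ± 0.17) and the glycolytic enzyme Pgk1 (1.05 ± 0.16) were more positive in TH, and the glucose transporter Slc2a3 (-1.31 ± 0.14) in LPS.

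Caspases and inflammasome genes had 8 of 14 with TH more positive and 2 with LPS more positive (median 0.42). Casp8, which starts death receptor apoptosis, differed by 1.17 ± 0.16, Casp1, which cleaves interleukin-1 beta, by 1.29 ± 0.22, and its adaptor Pycard by 1.12 ± 0.20. In TH, 5 of the 14 were higher in x without overlap, against 1.73% of all genes. Of 19 genes of apoptosis and p53, 2 and 6 passed (median -0.18), and 3 and 4 with each array scaled to a common median (median -0.04), with the survival factor Bcl2l1 at -0.92 ± 0.13. Glucocorticoid-induced genes had 6 and 1 of 23 passing. Their median was 0.36 in TH and 0.05 in LPS, while the median model difference was -0.07 and the mean 0.22, and with each array scaled to a common median the median model difference was 0.22. The median was 0.47 in letter A and -0.08 in letter E. Their members included Mt1, Tgm2 and, the other way, Errfi1 (-1.2 ± 0.22), a feedback inhibitor of growth factor receptors. Of 21 genes of oxidative stress, metallothionein and heme 6 and 5 passed. They included Mt1 and thioredoxin reductase (Txnrd1, 1.36 ± 0.21), more positive in TH, and Gclm, of glutathione synthesis (-1.32 ± 0.16), more positive in LPS. Of 20 cell cycle genes 4 and 3 passed, with the replication factors Pcna (1.21 ± 0.14) and Mcm4 (1.12 ± 0.11) more positive in TH. Of 13 clock genes 2 and 3 passed, with the repressor Cry2 at -0.95 ± 0.09 and Nr1d2 at 0.88 ± 0.20. The remaining lists, among them immediate early genes (3 and 3 of 28), adhesion and coagulation (3 and 4 of 19), prostaglandin and leukotriene synthesis (2 and 5 of 15), complement and Fc receptors (4 and 5 of 18) and dendritic cells (2 and 2 of 11), had median model differences between -0.14 and 0.13, or between -0.05 and 0.28 with each array scaled to a common median.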

How the data were processed

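Blood leukocyte RNA of 44 arrays was analysed. The deposited values were linear intensities, 1 per probe set and array; the authors' computation and scaling are not given in the sources used here. Dim probe sets (6.25% to 7.43% per array) were held at a floor, which was 28.9 in TH and 32.5 in LPS, and array medians ran from 117 to 127 in TH and from 138 to 145 in LPS, which is why levels were never compared between models. The number of arrays limits the precision. Of 22690 probe sets the 64 controls were left out. GEO's platform table, which can be old, gave 1 symbol to 20380, several to 691 and none to 1555.

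The deposited intensities were turned into log2(value + 16), which understates changes of dim genes, and quantile normalized over all 64 blood arrays. For each gene the brightest probe set on average was used, and those under the 30th percentile of the mean were left out, which kept 8992 genes with 1 symbol and 1255 probe sets without. A model with 1 term for each of the 8 groups was fitted in R 4.3.3 with limma 3.58.1 and its moderated test (eBayes with a trend). Tests were two-sided with Benjamini-Hochberg adjustment over all 10247, at 0.05, and the fit was tested on simulated data. A list level is the mean log2 value of its tested members in an array. The arrays and gene lists were chosen with earlier results of these data known. Genes were named by rule: the 10 most positive and 10 most negative model differences that passed, the 5 largest in opposite directions, 6 changed at least 2-fold in both models with the interval nearest 0, up to 3 members of each list with the smallest p, and the interferon and LPS receptor chains. Alternatives covered the pseudocount, normalization, filter, probe sets, fit, array weights, title-number run, letter, floor, beta-actin ratio and each array left out.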

Additional observations from a re-analysis of the deposited data

Results flagged for a closer look

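In 272 groups of 5 or 6 arrays (28 genes, 5 list levels and the beta-actin ratio), 25 had an array whose gap to the rest of its group passed Dixon's 95% limit, and chance gives about 1 in 20. All values are log2 levels. Replicate 5 of letter E in LPS x was low for Mmp8 (10.29, the nearest other array at 11.95), Cd14 (9.30 against 10.78), the interferon gamma target level (8.083 against 8.56) and the neutrophil granule level (9.211 against 10.17), and high for Ms4a6b (10.81 against 10.1). Replicate 3 of letter A in TH c was low for Pglyrp1 (9.73 against 10.46), Bcl3 (7.162 against 7.734), Tlr2 (7.139 against 7.84) and Tbk1 (7.26 against 7.798). Replicate 2 of letter E in TH c was low for Pglyrp1 (9.484 against 10.4), Mmp8 (9.645 against 11.4) and Bcl3 (7.229 against 7.959).

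Replicate 5 of letter A in LPS c was high for Zbp1 (8.06 against 7.795), Ifngr1 (9.049 against 8.673) and the type I interferon target level (8.616 against 8.508). Replicate 2 of letter A in TH x was low for Parp14 (8.755 against 10.24) and Tlr2 (7.827 against 9.137). Replicate 2 of letter A in LPS x was low for Ms4a6b (9.678 against 10.71) and Psma5 (7.855 against 8.663). In LPS x of letter E, replicate 3 was low for Frg1 (8.262 against 8.6) and Ifngr1 (8.404 against 8.682). In LPS c of letter E, replicate 6 was low for Tlr1 (7.78 against 8.22) and Tbk1 (8.564 against 8.862), and replicate 5 was high for Gbp2 (9.553 against 8.78). Mt1 was high in replicate 1 of letter E in TH c (8.846 against 8.119).

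Of the 947 genes whose x minus c passed in opposite directions in the models and whose difference itself passed in limma, the 5 with the largest difference are given here: Cndp2 (2.93), Mndal (1.89), AW112010 (1.83) and Ms4a6b (1.81) were more positive in TH and Psme3 (-1.79) in LPS.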

How the results depend on the processing

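The main counts were 4881 genes for the model difference, 5724 for x minus c in TH, 2520 for x minus c in LPS, 0 for letter dependence and 947 for opposite directions. Testing every probe set gave 7323 for the model difference and 3824 for LPS. Array weights gave 3822 for LPS and 9 for letter dependence. The first title-number run alone gave 3198 for the model difference, 2566 for TH and 454 for opposite directions, and the second 2738 for the model difference, 706 for LPS and 165 for opposite directions. Letter A alone gave 964 for LPS and 376 for opposite directions, and letter E alone 2169 for the model difference, 3318 for TH, 1310 for LPS and 235 for opposite directions. The beta-actin ratio as a covariate gave 265 for TH and 30 for opposite directions. Asking for at least 2-fold gave 411, 215, 45 and, for opposite directions, 0. These subsets hold fewer arrays, and the cause of the other shifts was not tested. Of 2 alternatives chosen after seeing the data, marker scores as covariates gave 1713, 1596, 1210 and 182, and leaving out the 2 arrays least like their group gave 4435 for the model difference. Leaving out each array in turn gave 4576 to 5103 for the model difference, 5390 to 5904 for TH, 2232 to 2692 for LPS, 0 to 0 for letter dependence and 825 to 1062 for opposite directions, and ended the calls of Crem (in 25 of 44 fits), Cd180 (20), Cd14 (11), Stat2 (11), Tyk2 (6), Map3k7 (6) and Tlr6 (6). Signs turned for Fcer2a (0.0294), Crem (-0.0558) and Cd14 (-0.10) in the first run, for Cd180 (-0.13) in the second, and with marker scores for Tnf (0.13), Socs1 (0.0408), Xbp1 (-0.00651), Tyk2 (-0.0411), Tlr9 (0.0873), Cd180 (-0.26) and Tab2 (-0.14). No paired analysis was possible because the titles number arrays consecutively and share no replicate numbers between groups. Signal near the floor limits what dim genes can show.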
